A study of Homo sapiens with 6 samples.

Results

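H3K9me3, the trimethylated form of lysine 9 on histone H3, was mapped by ChIP-seq, the sequencing of DNA pulled down with an antibody to the mark, in the human skin fibroblast line BJ. CRISPR interference, which silences a gene with a guided repressor, was directed to PURPL by guide 1 or by guide 2, or was used with a control guide. Each cell line gave 1 H3K9me3 library and 1 input library. PURPL encodes a long non-coding RNA that p53 induces. The regions described here are strong control peaks that neither PURPL guide shared. They are peaks of the control list on chromosomes 1 to 22 with an authors' score of at least 31 that overlapped no peak of guide 1 and no peak of guide 2 by even 1 bp. This rule found 858 regions among 5946 control peaks of that score, 22148 autosomal control peaks and 50558 peaks in the 3 lists together. The members were chosen by the control score and by the absence of guide peaks, so both are descriptions and no finding. No difference between cell lines below could be checked on replicates. Read depth is unknown, and 95% Wilson intervals cover counting error only. The lists hold no expression values, so fibroblast identity and the level of PURPL were not checked here.

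H3K9me3 is laid down by methyltransferases such as SUV39H1, SUV39H2 and SETDB1 and is bound by heterochromatin protein 1. It is densest on the satellite repeats around centromeres, and on chromosome arms it covers retrotransposons and clusters of zinc finger genes. Centromeric DNA in humans is built from tandem copies of alpha satellite, and some chromosomes share closely related arrays. In the genome build these arrays are represented by modelled sequence, in which a short read can fit several places.

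The 858 regions were 14.4% of the strong control peaks (interval 13.6 to 15.3). Of all autosomal control peaks 49.4% had no peak in either guide, and of those with a score under 31 it was 62.3%. Guide 1 alone lacked a peak at 21.5% of the strong control peaks, and guide 2 alone at 28.3%, whatever the other guide held. Over all autosomal control peaks these shares were 56.6% for guide 1 and 63.3% for guide 2. These shares used the same control library. The other 5088 strong control peaks comprised 3839 with a peak in both guides, 826 with one in guide 1 alone and 423 with one in guide 2 alone. The guide lists were also shorter than the control list, at 13980 autosomal peaks with guide 1 and 11582 with guide 2 against 22148 in the control. The part of list length in the absences was not tested.

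Scores among the absent regions were spread from 31 to 377, with a median of 39 and quartiles of 34 and 50. Strong peaks with a guide peak had a median score of 47 and reached 6585. At the limit of the rule, 86 of 363 control peaks with score 31 were absent from both guides, with a median width of 384 bp. Just outside it, 98 of 403 peaks with score 30 were absent, with a median width of 552 bp. The shares were 23.7% inside and 24.3% outside, so nothing in the values marks this limit as a step.

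The absent regions were narrow. Their median width was 348 bp (quartiles 269 and 756 bp), against 1415 bp (682 and 2661 bp) for strong peaks with a peak in 1 or both guides. The median was 766 bp for strong peaks with a peak in 1 guide and 1713 bp for those with a peak in both. Weaker peaks absent from both guides were wider than the strong ones, with a median of 599 bp. Among the absent regions 592 of 858 (69.0%, interval 65.8 to 72.0) were at most 600 bp wide, against 1155 of 5088 strong peaks with a guide peak (22.7%, 21.6 to 23.9). A wider peak can meet a guide peak more easily, so width and the rule are linked. All 858 regions together covered 512 kb, against 11040 kb for the strong peaks that a guide shared.

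**Figure D1:**
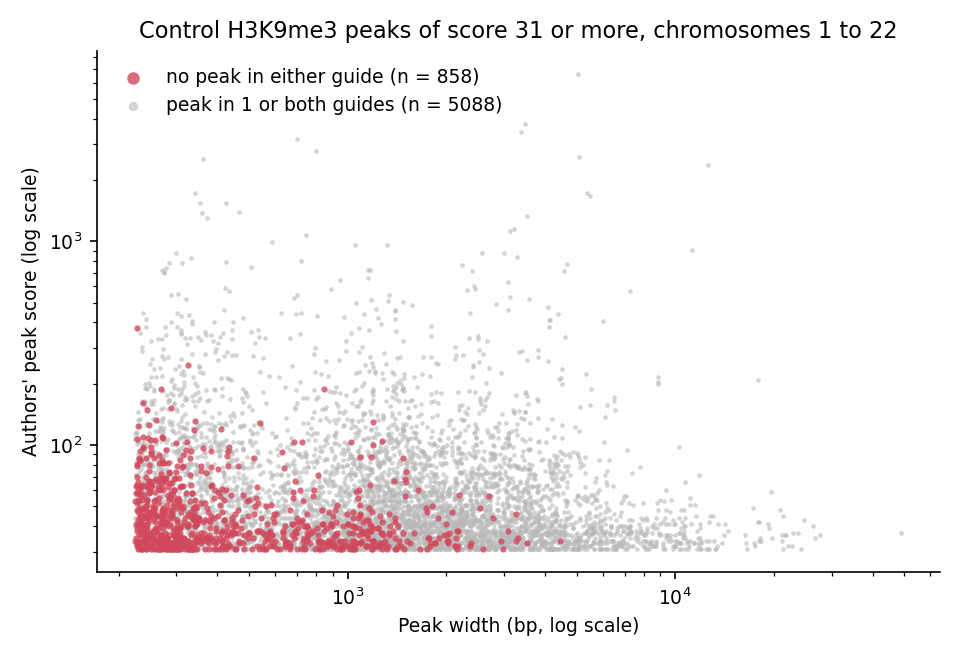
Width in bp and authors' score of each strong control peak, both on log scales. Red points are the 858 peaks with no peak in either guide and grey points the 5088 with a peak in 1 or both. The red points crowd at small widths, with a median of 348 bp against 1415 bp.

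Width and score together sorted the strong control peaks more sharply than either did alone. Among peaks of at most 300 bp and score 31 to 40, 139 of 225 were absent from both guides (61.8%, interval 55.3 to 67.9). At the same width but with a score of 76 or more, 37 of 202 were absent (18.3%, 13.6 to 24.2). Among peaks wider than 2000 bp and with score 31 to 40, 22 of 890 were absent (2.47%, 1.64 to 3.71). Of the 300 peaks wider than 2000 bp with a score of 76 or more, 0 were absent, which allows a share of up to 1.26% by the Wilson interval. At most 300 bp wide and with a score of 41 to 75, 147 of 267 were absent (55.1%, 49.1 to 60.9). Control peaks of at most 300 bp were thus often without a guide peak at scores up to 75. At a score of 76 or more their interval included the 14.4% of all strong control peaks. Among peaks wider than 300 bp and up to 600 bp with such a score, 25 of 310 were absent (8.1%, 5.5 to 11.6).

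Most absent regions lay in the gene-free stretches that on most chromosomes span the centromere. A stretch is 1 Mb or more of sequence from one annotated gene to the next, and chromosomes 1 to 22 held 29 of them, 172 Mb in all. Of the 858 regions 633 lay in a stretch (73.8%, interval 70.7 to 76.6), 90 in a protein-coding gene body (10.5%, 8.61 to 12.7), 27 in other annotated genes only and 108 in no gene outside a stretch. Strong peaks with a guide peak lay in stretches more often, 4793 of 5088 (94.2%, 93.5 to 94.8). Over the whole set they lay in coding genes less often, 155 of 5088 (3.05%, 2.61 to 3.56). A stretch holds no gene, so this coding share is tied to the stretch share. Outside stretches the order was reversed. There 155 of 295 strong peaks with a guide peak lay in coding genes, against 90 of 225 absent regions, a smaller share. Over all places, weaker absent peaks stood on the other side of the absent strong regions, with 19.1% in stretches and 33.1% in coding genes. The absent strong regions thus lay between the shared strong peaks and the weaker absent peaks in where they fell, and these intervals do not overlap. This place was not theirs alone. Weaker peaks with a guide peak also lay between, with 67.0% in stretches and 16.7% in coding genes.

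Absence was more frequent outside the stretches at each width. Inside them 633 of 5426 strong control peaks were absent, and elsewhere 225 of 520 (43.3%, interval 39.1 to 47.6). For peaks of at most 300 bp the share was 41.5% in stretches (250 of 602, 37.7 to 45.5) and 79.3% elsewhere (73 of 92, 70.0 to 86.4). For peaks wider than 2000 bp it was 1.33% in stretches (23 of 1728) and 4.44% elsewhere (6 of 135), where the intervals, 0.889 to 1.99 and 2.05 to 9.36, lie close together.

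**Figure D2:**
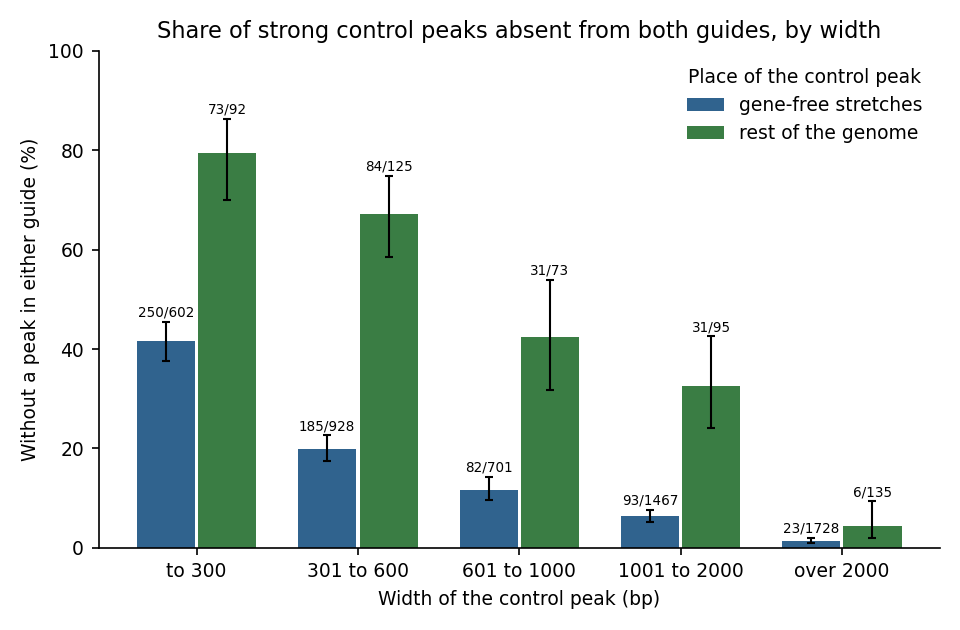
Share of strong control peaks with no peak in either guide, in percent, by width of the control peak in bp, inside gene-free stretches and in the rest of the genome. Bars are shares, error bars 95% Wilson intervals, and the fractions give absent over all peaks. The share goes down with width in both places, from 41.5% to 1.33% in stretches and from 79.3% to 4.44% elsewhere.

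The 10 highest-scoring absent regions all lay in stretches, on chromosomes 5, 11, 17 and 19, and each had guide peaks a few kilobases away. All positions are on GRCh38. First was chr17:26566922-26567149, a 228 bp peak with score 377. Its nearest peak was 975 bp away with guide 1 and 4207 bp away with guide 2, and their own scores were 16 and 13. Second was chr5:48498076-48498401, with score 246, where the nearest guide peaks stood 1259 bp and 1302 bp away. Chr11:52779863-52780712, 850 bp wide, and chr19:26443733-26444002, 270 bp wide, both had score 188. The control peaks named so far thus had a called peak of each guide within 5 kb. Those beside the first scored little above 10, the lowest score in the lists.

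The next 6 scored 160 to 130. They were chr17:24740193-24740429, chr11:52990666-52990955, chr5:48992703-48992946, chr5:48844238-48844497, chr5:49956785-49957126 and chr19:26291003-26292199. Of these, the region at chr5:49956785-49957126 had the longest gaps, 5889 bp in guide 1 and 6229 bp in guide 2. The last, 1197 bp wide, was the widest of the 10.

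Most absent regions of the stretches had a guide peak within a few kilobases. There the median gap to the nearest peak was 2183 bp in guide 1 and 2362 bp in guide 2. A peak of either guide lay within 5 kb of 564 of 633 regions (89.1%, interval 86.4 to 91.3), and a peak of each guide within 5 kb of 467 (73.8%). Only 2 had no guide peak within 100 kb. Guide 1 peaks stood on both sides within 5 kb of 295 regions and guide 2 peaks of 261, against 425 with control peaks on both sides. The next shares set absent regions beside shared peaks of like width. At a shared peak, a guide peak that overlaps it and runs past its edge counts as flanking. The rule forbids such a peak at an absent region, so the guide differences are partly set by the rule and are no finding. Among regions of at most 600 bp, guide 1 peaks flanked both sides of 46.9% of the 435 absent and 72.1% of the 630 shared by both guides, and guide 2 peaks 41.1% and 69.0%. A guide 1 peak on at least 1 side was found for 83.5% of the absent and 97.3% of the shared, while control peaks flanked both sides of 66.4% and 74.1%. In no list were neighbouring peaks closer than 874 bp (902 bp within the control list), so nearer signal within a library is part of 1 peak. A guide peak was nevertheless within 500 bp of 28 of the 633 regions.

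**Figure D3:**
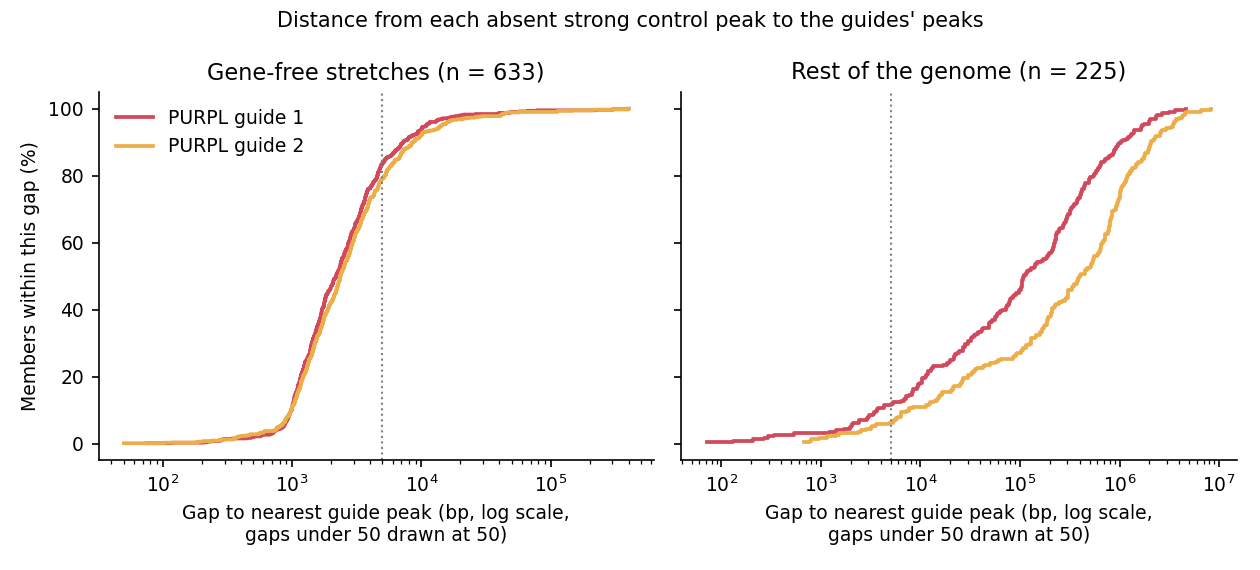
Cumulative share of the absent regions, in percent, against the gap in bp to the nearest peak of guide 1 or guide 2 on a log scale, for 633 regions in gene-free stretches and 225 elsewhere. The dotted line marks 5000 bp. In stretches 83.7% with guide 1 and 79.1% with guide 2 lie left of it, and elsewhere 12.0% and 6.22%.

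Guide peaks also covered part of the sequence around the absent regions of the stretches. Between 1 and 10 kb from their edges, guide 1 peaks covered 18.0% of bases and guide 2 peaks 15.0%, against 29.5% for the control. The guides thus had 60.9% and 51.0% of the control coverage there. Around absent regions of at most 600 bp the guides had 62.4% and 52.4% of the control coverage. Around strong peaks of the same width that both guides shared, they were 68.7% and 59.8%. A guide peak on a shared peak that reaches more than 1 kb past its edge is counted here too, which the rule forbids at absent regions. These are sums over 435 absent and 630 shared peaks, many of them neighbours, and carry no error.

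The control peaks nearest to the absent regions had guide peaks slightly less often than control peaks of the stretches in general. In the stretches 577 of 633 absent regions had another control peak within 5 kb. That neighbour had a peak in both guides in 279 cases (48.4%), in guide 1 alone in 82 and in guide 2 alone in 57. It was absent from both guides in 159 (27.6%, interval 24.1 to 31.3), 49 of them strong. Of all 11452 control peaks of the stretches, 2562 were absent from both guides (22.4%, 21.6 to 23.1) and 51.8% had a peak in both. A guide peak that runs from the neighbour onto the absent region is forbidden, so this difference is partly set by the rule and is no finding. The 49 strong absent neighbours are themselves absent regions, and the same peak can be counted for more than 1 region, which the interval ignores. The absent regions had a median width of 343 bp and a median score of 42, against 1029 bp and 34 for these neighbours. The neighbours could have any score, while the rule asked for at least 31. Width is linked to the rule as well, so neither difference is a finding.

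**Figure D4:**
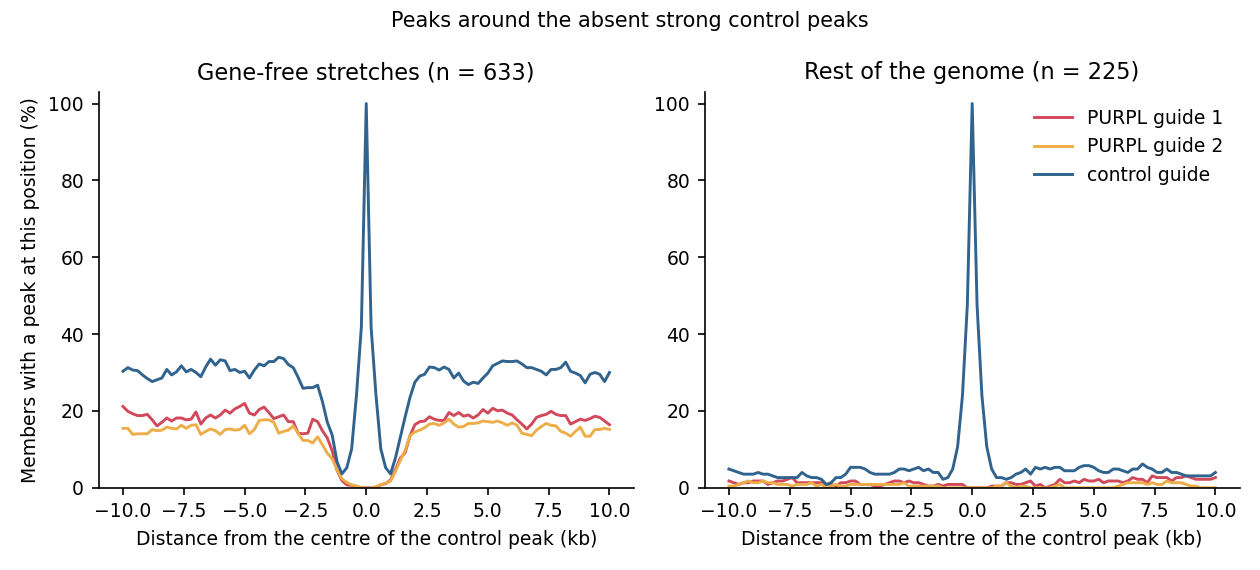
Share of absent regions, in percent, that have a peak at each distance in kb from the centre of the control peak, for guide 1, guide 2 and control, in stretches (n = 633) and elsewhere (n = 225). The rule sets the guides to 0 and the control to 100% at the centre. At 5 kb to the right the shares in stretches are 19.4%, 17.2% and 29.9%, and elsewhere 1.78%, 0% and 5.33%.

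All 22 autosomes held absent regions, and their share of strong peaks differed among stretches. Chromosome 12 had the highest share, 26 of 76 strong stretch peaks (34.2%, interval 24.5 to 45.4). Chromosome 18 followed with 65 of 248 (26.2%, 21.1 to 32.0), then chromosome 7 with 22 of 110 (20.0%, 13.6 to 28.4) and chromosome 17 with 50 of 280 (17.9%, 13.8 to 22.8). Chromosome 8 had the lowest, 4 of 189 (2.12%, 0.826 to 5.31), with chromosome 4 at 4.05%, chromosome 6 at 4.11% and chromosome 20 at 4.62%. The median over chromosomes was 10.6%. The intervals of chromosomes 7, 12, 17 and 18 lie above that median and those of chromosomes 4, 8 and 20 below it.

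The chromosomes with the highest and the lowest share also differed in the width of their strong peaks. Strong stretch peaks had a median width of 681 bp on chromosome 12 and 4315 bp on chromosome 8. Width and share did not go together throughout. Chromosome 10, with a median of 901 bp, had 10.4% absent, and chromosome 18, with 1012.5 bp, had 26.2%. Among strong stretch peaks of at most 600 bp the share absent was 52.8% on chromosome 12 (19 of 36, interval 37.0 to 68.0), 43.7% on chromosome 18 (38 of 87, 33.7 to 54.2) and 20.7% on chromosome 1 (35 of 169, 15.3 to 27.4). On chromosome 8 it was 1 of 9, too few to compare. Chromosomes 12 and 18 thus stayed above chromosome 1 among narrow peaks, and their own intervals overlapped. Other chromosomes changed places. Chromosome 20, among the lowest over all widths, had 6 of 16 narrow peaks absent (37.5%, 18.5 to 61.4), against 41 of 118 (34.7%, 26.8 to 43.7) on chromosome 17. Chromosome 3 had 5.83% absent over all widths and 29.4% among narrow peaks (5 of 17, 13.3 to 53.1).

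Chromosome 18 also differed in which guide lacked more of its peaks. Of its 248 strong stretch peaks 111 had no guide 1 peak (44.8%) and 100 no guide 2 peak (40.3%). On the other 21 autosomes the share without a guide 2 peak was the larger. Chromosomes 1, 5 and 19, which carry related alpha satellite, had 223 of 1619 strong peaks absent (13.8%) over their whole length, arms included. In their stretches alone the shares were 10.2%, 11.5% and 13.1%, against the median over chromosomes of 10.6%. Chromosomes 13, 14, 21 and 22 had 160 of 1309 (12.2%) over their whole length, and 10.7%, 7.67%, 13.9% and 10.7% in stretches. Both whole-length shares are near the 14.4% of all strong peaks.

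**Figure D5:**
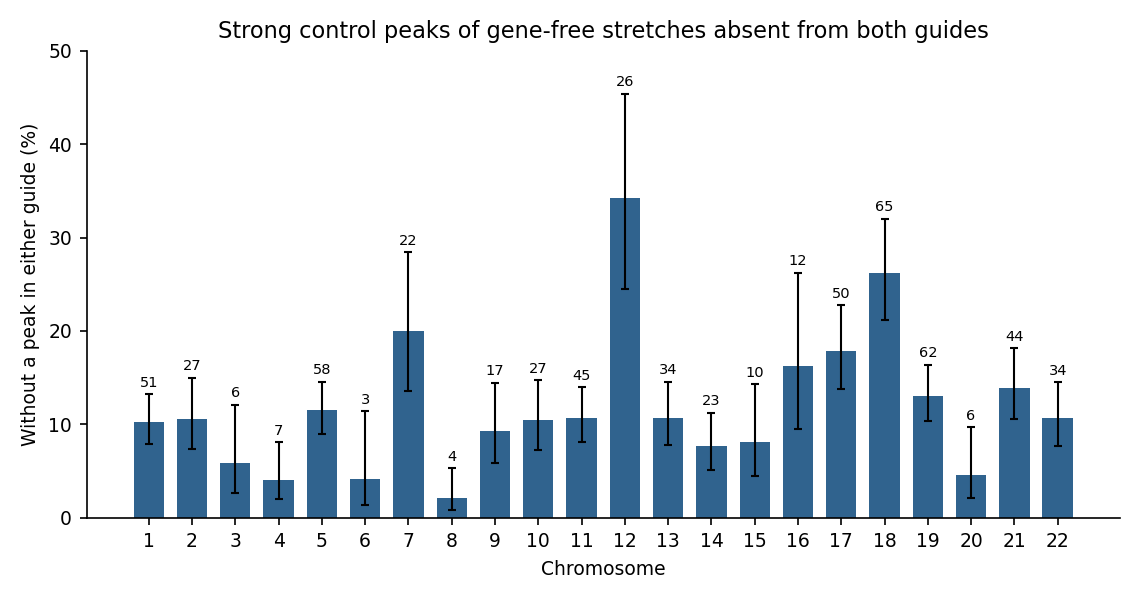
Share of strong control peaks in gene-free stretches that have no peak in either guide, in percent, for each of the 22 autosomes. Bars are shares, error bars 95% Wilson intervals, and the numbers count absent regions. Chromosomes 12 (34.2%) and 18 (26.2%) stand highest and chromosome 8 (2.12%) lowest.

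Absent regions gathered only loosely. The densest 50 kb windows held 5 of them, at chr5:49911479-49961478, chr13:16878667-16928666 and chr17:26158168-26208167. In the window on chromosome 5, guide 1 had 1 peak and guide 2 had 2, against 9 in the control, and covered 1158 bp and 786 bp against 4769 bp. In the window on chromosome 13, guide 1 had 10 peaks and guide 2 had 9, against 17 in the control. In the window on chromosome 17 the numbers were 5 and 2 against 10. A 50 kb window opened at a region and running to its right held no second one in 536 of 858 cases.

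Outside the stretches the absent regions stood apart from the guides' peaks. The median gap to the nearest peak was 109 kb with guide 1 and 398 kb with guide 2. A peak of either guide was within 5 kb of 34 of 225 regions (15.1%, interval 11.0 to 20.4). The control itself was sparse there, as 49 of 225 had another control peak within 5 kb and the median gap to the next control peak was 57378 bp. Coverage between 1 and 10 kb from their edges was 1.58% with guide 1 and 0.653% with guide 2, against 4.14% in the control.

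Of these 225 regions 24 lay within 1 Mb of a stretch, 13 of them on chromosome 3 between 90811628 and 91199438, with scores of 34 to 79. The other 201 were spread over the arms, with a median width of 375 bp and a median score of 34. Of the 201, 89 lay in coding genes (44.3%). Strong peaks equally far from stretches that a guide shared had a median width of 1769 bp, and 151 of 259 lay in coding genes (58.3%).

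Altogether 115 absent regions had no peak of either guide within 100 kb, and 113 of them lay on the arms outside stretches. Their scores were 31 to 128, and 57 of them had no other control peak within 100 kb either. Farthest of all was chr10:108313831-108314156, with score 31, whose nearest guide peaks were 2016 kb and 2017 kb away. Next came chr13:104654548-104655081 (score 52), chr3:175049376-175049657 in the body of NAALADL2 (score 31), chr1:17754799-17755076 (score 37) and chr10:53761922-53762263 (score 45). In these 5 the nearest peak of either guide was between 1386 kb and 2016 kb away, and NAALADL2 was the only annotated gene under one of them.

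Protein-coding genes held 90 of the absent regions, and 90 such genes had at least 1. These genes were long, with a median of 163 kb, against 108 kb for the 2587 coding genes with any control peak and 24.5 kb for all 19126. A longer gene can hold a peak more easily. The length of the 246 coding genes with a strong control peak was not measured, so length cannot be tied to absence. Neither guide had a peak anywhere in 47 of the 90 genes with an absent region (52.2%). This is close to the background, as 1356 of all 2587 control-marked coding genes had no guide peak either (52.4%). Guide 1 had a peak elsewhere in the body of 41 of the 90 genes and guide 2 in 19.

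Among the 20 coding genes with the highest-scoring absent regions, 12 had no peak in either guide, and in 10 of those 12 the absent region was the gene's only control peak. VIPR2, the receptor for vasoactive intestinal peptide, held the highest, a 542 bp peak of score 128 at chr7:159088935-159089476. The nearest guide peaks were 106 kb (guide 1) and 114 kb (guide 2) away. PAX5, the transcription factor of B cell identity, followed with a 384 bp peak of score 78 at chr9:36991464-36991847, and its nearest guide peaks were 985 kb and 1787 kb away. In both genes the covered length was 0 bp in guide 1 and 0 bp in guide 2, so each was marked in the control list alone and by a single narrow peak.

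Others of the 12 were alike in having no guide peak. LRP5, a Wnt co-receptor, held 1 control peak of 1171 bp and score 41. KSR2, a scaffold of the RAS and MAP kinase cascade, held 1 of 843 bp and score 41. DAPK1, a kinase of cell death, held 1 of 278 bp and score 42. All 3 had 0 bp in both guides. PRKCE, encoding protein kinase C epsilon, had 4 control peaks over 2017 bp, of which 1 scored 51 and was strong and absent, and 0 bp in both guides. FGGY, a carbohydrate kinase, had 2 control peaks over 810 bp and likewise 0 bp in both.

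FAM186B (782 bp, score 56), C19orf38 (428 bp, score 40), TMEM44 (1179 bp, score 38) and MTG1, a GTPase of mitochondrial ribosomes (2156 bp, score 38), were also among the 12. Each had 1 control peak and no guide peak. MTG1 held the widest absent region of the 20 genes, and its nearest guide peaks were 22.5 kb and 34.6 kb from it.

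In the other 8 of the 20 genes, guide 1 had a peak somewhere in the body, not always where the control had one. PIEZO2, a mechanically gated ion channel, had 1872 bp in guide 1 and 0 bp in guide 2, against 2671 bp in the control. SLIT3, a ligand of Robo receptors, had 2302 bp in guide 1 and 0 bp in guide 2, against 2307 bp in the control, although its absent region spans 1077 bp. Coverage of SLIT3 was thus of like length in guide 1 and the control, with none of the guide 1 peaks on the absent region. DCBLD2 (246, 0 and 3538 bp for guide 1, guide 2 and control), ODAD2, a docking factor of ciliary dynein arms (934, 0 and 1332 bp), and MAN1A2, a Golgi mannosidase (312, 0 and 1949 bp), had the same order.

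Of these genes, MAGI2 and CUX2 had a peak with both guides. MAGI2, a scaffold of synapses and the gene of the synaptic list with an absent region, had 869 bp in guide 1 and 223 bp in guide 2, against 2255 bp in the control. CUX2, a homeobox transcription factor gene, had 354 bp in guide 1 and 240 bp in guide 2, against 398 bp in the control. That control peak is the absent region and the only one in the gene, and the peaks with guides 1 and 2 lay at least 42.9 kb and 172 kb from it, where the control had none.

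Measured by absent bases among protein-coding genes, ANTXR2, a receptor for anthrax toxin that binds matrix proteins, led with 2584 bp in 1 region of score 31. Its body had 349 bp in guide 1 and 352 bp in guide 2, against 5662 bp in the control. Of the coding genes, ZNF540 (2175 bp), MTG1 (2156 bp), WWC2 (1661 bp) and NOTCH3 (1474 bp) followed. The transcribed pseudogene FRG1DP, named after its values were seen, held more than any coding gene, with 4435 bp in 1 region of score 34. NOTCH3, a receptor of the Notch family, had 0 bp in guide 1 and 599 bp in guide 2, against 3229 bp in the control. The absent region there, at chr19:15158612-15160511, runs past one end of the gene. STIM1, the calcium sensor of the endoplasmic reticulum, and RPTOR, a subunit of the mTORC1 kinase complex, were the genes with 2 absent regions each, and were named after their values were seen. STIM1 had 504 bp in guide 1 and 0 bp in guide 2, against 1027 bp in the control. RPTOR had 221 bp in guide 1 and 0 bp in guide 2, against 577 bp in the control, and a guide 1 peak began 130 bp from one of its absent regions.

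Strong control peaks in zinc finger gene bodies were absent from both guides less often than those in other coding genes. These genes encode DNA-binding proteins, among them many repressors. In their bodies 9 of 82 strong peaks were absent (11.0%, interval 5.88 to 19.6), against 81 of 163 in other coding genes (49.7%, 42.1 to 57.3). The zinc finger interval includes the 14.4% of all strong control peaks, and that of other coding genes lies above it. The strong peaks of zinc finger bodies were also far wider, with a median of 7071 bp against 718 bp. Among those of at most 600 bp, 6 of 7 were absent in zinc finger bodies and 54 of 71 in other genes, too few in the first to compare. All 9 zinc finger genes with an absent region had a guide peak elsewhere in the body. ZNF540 had 14626 bp in guide 1 and 4429 bp in guide 2, against 35472 bp in the control. ZNF578 had 10705 bp and 2395 bp against 37603 bp, and ZNF560 1043 bp and 743 bp against 9600 bp.

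Other gene lists held few absent regions. Of 53 clustered protocadherins, adhesion genes of neurons, 1 had a strong control peak, and it was absent: a 1297 bp region of score 34 that overlaps the end of PCDHB10 by 304 bp. Of 30 synaptic and neuronal genes, 2 had a strong control peak and 1, MAGI2, an absent region. Long intergenic non-coding RNAs had 5 absent regions among 9 entries with a strong control peak, in LINC02341, LINC02613 and LINC00964 and, named after their values were seen, LINC02112 and LINC02402. The numbers of genes with a strong control peak were 5 of 28 USP17-like and DUX genes, 2 of 24 genes of H3K9 methylation and 2 of 22 immediate-early genes, with 0 absent regions in each. Olfactory receptors (391 genes), fibroblast matrix genes (30), p53 targets (26), imprinted genes (20) and POTE and ankyrin duplicon genes (16) had no strong control peak, so no member was possible.

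Non-coding entries with the highest-scoring absent regions were LOC105376815 (score 49, 2538 bp) and LOC101928188 (score 49, 241 bp), both long non-coding RNAs, and the pseudogene GTF2IP4 (score 47, 257 bp). A 997 bp region of score 46 on chromosome 1 lay in LOC124904184 and over TRK-CTT7-1, a lysine transfer RNA gene of 73 bp. Of these 5 entries, each had 0 bp in both guides.

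No absent region overlapped a RefSeq promoter window (250 bases before to 50 after a gene's start), and 2 lay within 500 bp of one. Windows were given for 21 of the 22 autosomes, which carried 847 of the 858 regions. Both windows are shown because they are the start sites nearest to an absent region, and they were chosen after their values were seen. They are RefSeq sequences of GRCh38.p14, written 5′ to 3′ on the gene's own strand, with each CG dinucleotide in capitals, the site of DNA methylation, a mark that often goes with H3K9me3.
ACTL8, chr1:17755083-17755382, plus strand: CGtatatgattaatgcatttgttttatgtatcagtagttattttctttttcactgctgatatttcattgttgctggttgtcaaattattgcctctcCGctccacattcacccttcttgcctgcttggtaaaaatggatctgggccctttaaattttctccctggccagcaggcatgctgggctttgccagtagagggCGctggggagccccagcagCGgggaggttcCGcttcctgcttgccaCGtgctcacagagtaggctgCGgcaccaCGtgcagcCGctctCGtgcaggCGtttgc
ANKRD54, chr22:37844285-37844584, minus strand: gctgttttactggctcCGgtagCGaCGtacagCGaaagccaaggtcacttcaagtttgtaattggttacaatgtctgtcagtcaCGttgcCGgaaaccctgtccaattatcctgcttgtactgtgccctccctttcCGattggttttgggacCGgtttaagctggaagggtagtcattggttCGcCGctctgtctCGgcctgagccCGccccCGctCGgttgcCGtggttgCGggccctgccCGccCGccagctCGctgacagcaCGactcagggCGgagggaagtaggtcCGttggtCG

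The ACTL8 window starts 6 bp after the end of an absent region of 278 bp and score 37, which is also 1 of the 5 farthest from any guide peak, at 2405 kb with guide 1 and 1539 kb with guide 2. ACTL8 is an actin-like gene. Its window holds 11 CG dinucleotides, and 54.7% of the 35116 windows in the table hold at least as many. The ANKRD54 window lies 119 bp from an absent region of 231 bp and score 36, which lies upstream of that start but inside the gene's annotated span. Guide peaks are 410 kb away in both lists. It holds 23 CG dinucleotides, a number that 35.8% of windows reach. Weaker absent peaks overlapped a promoter window in 20 of 10090 cases, and strong peaks with a guide peak in 9 of 5088.

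Turned round, the rule asked for absence from 1 list, the control, and not from 2. It gave fewer regions than the 1281 strong control peaks without a guide 1 peak (21.5%) and the 1684 without a guide 2 peak (28.3%). Of 3939 guide 1 peaks with a score of at least 31, 305 overlapped no control peak (7.74%, interval 6.95 to 8.62), and of 3241 guide 2 peaks 229 (7.07%, 6.23 to 8.00). The control list, with more peaks and more covered length, offers more to overlap, and its part in this difference was not tested. The guides' own regions were narrow too, with median widths of 282 bp and 276 bp against 974 bp and 888 bp for those with a control peak. Of them 80.0% and 79.5% lay in stretches. Narrow peaks of high score without a counterpart were therefore present in all 3 lists.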

How the data were processed

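ChIP-seq of H3K9me3 with a matched input was made in 3 BJ cell lines, 1 library of each kind per line. The deposited file of each line is a peak list with a whole-number score per peak of at least 10, the authors' own value on a scale that is not stated. Each line has its own list, so replicates or lines were not pooled. The submitters' processing notes name hg38 and GRCh38.p13 as builds. They name MACS2 (2.2.9.1), Bowtie2 (2.4.2), deepTools (3.5.1) and GATK as tools, without roles. Neither read numbers nor calling settings are given there. Guide names within the lists differ from those in the labels, and the labels decided which list belongs to which line.

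Overlap of at least 1 bp counted as present. Gene spans came from a RefSeq table (GRCh38.p14), with no exons, so exonic or intronic place was not used. The score ranked or filtered peaks within a list and set 1 limit for all lists in the reversed rule. Shares carry 95% Wilson intervals for counting error, and no test between cell lines was possible. Named regions were the 10 with the highest score, the 5 farthest from guide peaks and the 3 densest windows of 50 kb. Named genes were the 20 coding genes with the highest-scoring members, the 5 with the most member bases, the 5 highest-scoring non-coding entries and up to 3 per gene list. Of the 20 coding genes, 2 are counted but not reported here. The members, the 12 lists and the named-gene rule were chosen with earlier results of these data known. Interval code was tested on simulated data. Calculations ran in Python 3.11.15 with pandas 2.3.3, numpy 2.4.6, matplotlib 3.10.9 and scipy 1.17.1.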

Additional observations from a re-analysis of the deposited data

How the results depend on the processing

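The number of absent regions depends most on what counts as a guide peak and on the score limit. It was 858 as reported, 260 when a guide peak within 5000 bp counted as present, 1831 when presence required a guide list to cover 50% or more of the peak, 2591 when only guide peaks of score at least 31 counted, 3675 at a score limit of 20, 217 at a limit of 50 and 1684 with guide 2 alone. The share in gene-free stretches (73.8%) was, in that order, 26.5%, 83.0%, 83.4%, 40.7%, 90.8% and 79.7%, and 80.5% with guide 1 alone. The share in coding genes (10.5%) was 30.8%, 7.70%, 8.03%, 25.5% and 3.23% under the first 5 of these settings, and 7.49% with guide 1 alone. The share with a guide peak within 5000 bp (69.7%) was 85.8% with 50% coverage required, 90.0% with guide peaks of score at least 31, 47.0% and 82.5% at limits of 20 and 50, and 79.7% and 84.6% with guide 1 or guide 2 alone. It was 80.3% within 20000 bp. The median width (348 bp) was 1034 bp with 50% coverage required, 938 bp with guide peaks of score at least 31 and 524 bp at a limit of 20. The stricter settings for presence admit wide peaks by construction, and other causes were not tested. Adding chromosome X, merging control peaks within 1000 bp, counting guide peaks within 500 bp, stretches of at least 500 kb and gene bodies widened by 5000 bp moved no share outside its interval.

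No paired analysis was possible because each group has 1 library. Read depth is unknown, so a peak below the calling limit of a guide cannot be told from a mark that is not there.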

Other observations

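The same rule applied outside the autosomes gave 23 absent regions among 35 strong control peaks on chromosome X (65.7%, Wilson interval 49.2 to 79.2), and 27 among 185 on unplaced, unlocalised and patch sequences (14.6%, 10.2 to 20.4). The share on chromosome X was above the 14.4% of the autosomes beyond counting error, in 1 library per cell line. With chromosome X added, 653 of 881 absent regions lay in gene-free stretches, against 633 of 858 on the autosomes alone. The share absent on chromosome X was not split by width or place, with which it changed on the autosomes.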
